A study of Mus musculus with 2 samples.

Results

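The cells described here are the 107 of 7314 kidney cells that the authors of the study placed in the cluster they named pDC, for plasmacytoid dendritic cells (DCs), 1 of their 16 clusters. The study states a slightly larger number of cells than this table holds. The members were taken from the cluster column of the deposited table of cells, and no expression value was used to choose them. The C57BL/6 mice had nephrotoxic serum nephritis, an immune injury of the glomeruli. At 8 weeks of age they were primed with sheep IgG (200 μg), and 4 days later they received sheep serum against glomeruli, at 2 μl per g of body weight per the labels (the study's methods give another dose). The WT library came from mice with an intact Vsir gene, and the Vsir-/- library came from mice that lack it. Vsir encodes VISTA, an inhibitory immune checkpoint protein. Kidneys of both genotypes were digested in liberase (0.2 mg/ml) at 37°C for 30 minutes, and both groups had nephritis, so no healthy kidney enters any comparison. There was 1 library per genotype and the number of mice per library is not given in the sources used here. Differences between the libraries therefore have no replicate check, no test between genotypes was made, and intervals of shares, levels, and ratios are exact 95% intervals that cover counting error only.

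Plasmacytoid DCs are round, secretory cells that sense viral nucleic acids through endosomal Toll-like receptors and can release large amounts of type I interferon. They depend on the transcription factor TCF4, carry the lectin Siglec-H and the gut-homing receptor CCR9 in mice, and hold little MHC class II when resting. Conventional DCs depend on FLT3 ligand and are specialized in presenting antigen to T cells. Type 1 conventional DCs need IRF8 and BATF3, carry XCR1 and CLEC9A, and cross-present antigen to CD8+ T cells, whereas type 2 conventional DCs carry SIRPα and lectins such as CD301b (Mgl2) and, in part of the population, CD209a, and mainly prime CD4+ T cells. In the kidney, conventional DCs overlap in surface proteins and transcripts with macrophages and monocyte-derived cells. The marker transcripts for this cluster are Siglech, Bst2, Tcf4, Ccr9, and Cd209a, and Cd209a belongs to the conventional side of this division.

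The libraries differed in ways other than Vsir. The labels describe flow-sorted CD45+ cells for the WT library and all kidney cells for the Vsir-/- library, whereas the study's methods describe sorted immune cells. Of the 20299 genes in the table, 5348 were listed at 0 in the whole WT library, and 1011 of these had 100 or more unique molecular identifiers (UMIs, each marking 1 captured transcript) in the Vsir-/- library. Some of them were older and newer symbols of the same gene. Aes had 13241 UMIs in the WT library and 0 in the Vsir-/- library, and its newer symbol Tle5 had 0 and 7784. In the WT library no gene was detected in exactly 1 cell, compared with 708 genes in the Vsir-/- library. A gene listed at 0 in a whole library is therefore given here without a fold difference. Xist, transcribed from the inactive X chromosome of female cells, was listed at 0 in the WT library and had 16405 UMIs in the Vsir-/- library, while the Y-linked Ddx3y had 1779 UMIs in the WT library and 0 in the Vsir-/- library, so sex and genotype cannot be told apart. The study's methods state that all mice were male, which the Xist UMIs of the Vsir-/- library go against.

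Vsir itself followed the labels. In the cluster, WT cells held 51 Vsir UMIs in 18 of 21 cells, or 193 CPM (UMIs per 1000000 UMIs of the same cells; interval, 143 to 253). Vsir-/- cells of the cluster held 0 Vsir UMIs, which allows up to 3.12 CPM, and the whole Vsir-/- library held 8 Vsir UMIs compared with 4278 in the WT library. Ptprc, which encodes the leukocyte antigen CD45, was detected in all 21 WT cells and in 84 of 86 Vsir-/- cells.

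The 21 WT cells made up 0.384% of the 5470 cells of their library (interval, 0.238% to 0.586%), and the 86 Vsir-/- cells made up 4.66% of 1844 (3.75% to 5.73%). The share was higher in the Vsir-/- library, but a sort for CD45 sets the denominator and the labels give it for 1 library only, so the part of the sort and the part of the genotype cannot be told apart. Among cells with a Ptprc UMI the Vsir-/- share was 6.19%. Depth differed little within the cluster. The median cell held 11888 UMIs from 3077 genes in WT (range, 6799 to 26701 UMIs) and 13776.5 UMIs from 3193 genes in Vsir-/- (1525 to 35242 UMIs), and the sums over the cluster were 264701 and 1183096 UMIs. The median mitochondrial share of UMIs was 2.74% and 2.25%. These cells were deep compared with their libraries, whose median cells held 4726.5 and 6673 UMIs. The libraries shared 5 cell barcodes, and 0 of these were in the cluster.

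Of the 5 marker transcripts, Bst2 and Tcf4 were found in most cells, and Siglech, Ccr9, and Cd209a in a minority. Siglech, the defining lectin of mouse plasmacytoid DCs, was at 200 CPM in WT (interval, 150 to 262) and 205 CPM in Vsir-/- (180 to 233), in 6 of 21 cells (28.6%) and 20 of 86 cells (23.3%). The WT level depends on cells that also held RNA of other lineages, and levels without such cells are given with the lineage counts. Ccr9 was at 121 and 120 CPM, in 5 and 20 cells (23.8% and 23.3%). Cd209a, a C-type lectin of conventional and monocyte-derived DCs, was at 412 CPM (338 to 497) and 375 CPM (341 to 412), in 9 and 34 cells (42.9% and 39.5%). The Cd209 family has near-identical members, and its other members in the table were scarcer, with Cd209d at 41.6 and 26.2 CPM.

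The shares for these 3 genes stood above those in cells that should lack them. Siglech was found in 0 of 969 WT B cells (interval, up to 0.380%) and in 1 of 88 Vsir-/- B cells (1.14%), whose median depths were 3426 and 3596.5 UMIs. Ccr9 was found in 0.413% of WT B cells and 0 Vsir-/- B cells, and Cd209a in 0.413% and 3.41%. After each cell was thinned to 1000 UMIs to equalize depth, Siglech was found in 14.3% of WT and 15.1% of Vsir-/- cells of the cluster, and Cd209a in 23.8% and 16.3%. Bst2 and Tcf4 separated the cluster less. Bst2, the interferon-inducible protein tetherin, was at 1262 CPM in WT (1130 to 1405) and 786 CPM in Vsir-/- (736 to 838), in 100% and 90.7% of cells, but also in 21.6% and 43.2% of B cells and at 684 and 866 CPM in the cluster named R1, the kidney-resident macrophages. Tcf4 was at 419 and 309 CPM in the cluster (345 to 505, and 278 to 343), in 81.0% and 68.6% of cells, and was also in 50.6% and 38.6% of B cells. At 1000 UMIs the shares with Tcf4 were 23.8% and 23.3% in the cluster and 22.1% and 12.5% in B cells.

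**Figure D1:**
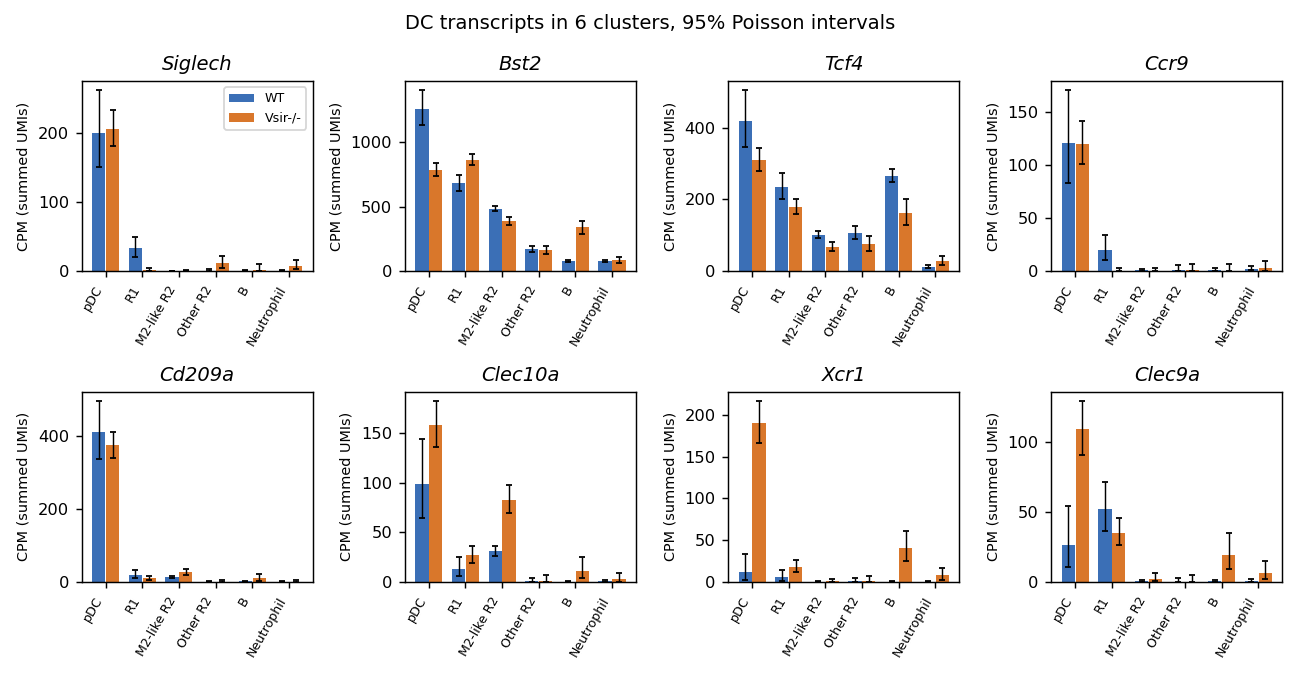
Summed level (CPM, with exact 95% Poisson intervals) of 8 DC transcripts in the cluster named pDC and in 5 other clusters, for the WT and the Vsir-/- library. Of the 6 clusters, the cluster named pDC had the most Siglech and Cd209a in both libraries, at 200 and 205 CPM and at 412 and 375 CPM, beside transcripts of conventional DCs.

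Most Siglech UMIs of the Vsir-/- library lay in the cluster, 92.4%, compared with 69.7% in the WT library, where R1 macrophages held the other 23 UMIs. The same held for Cd209a, with 86.9% and 50.7% of the library's UMIs. For Ccr9 the shares were 77.6% and 5.98%, since CD8+ T cells of the WT library held 273 Ccr9 UMIs. Only 5.28% and 11.1% of the Bst2 UMIs, and 5.06% and 12.1% of the Tcf4 UMIs (WT and Vsir-/-, respectively), came from the cluster. Several transcripts of conventional DCs had a large part of their UMIs in the Vsir-/- cluster too, and a smaller part in WT. The cluster held 18.8% of the WT and 79.5% of the Vsir-/- library's UMIs of Xcr1, the receptor for the chemokine XCL1 on type 1 conventional DCs, 14.6% and 62.9% of those of Clec9a, a receptor for dead cells on the same cells, and 28.3% and 76.9% of those of Flt3, the receptor for the growth factor of conventional DCs. In WT, R1 macrophages held 36 of the 48 Clec9a UMIs. Of the other lectins of type 2 cells, Mgl2 lay mostly elsewhere, with 2.45% and 21.7% of its UMIs in the cluster (R1 macrophages held 206 of 245 and 713 of 1169). Clec10a had 13.9% and 48.7% of its UMIs in the cluster (M2-like R2 macrophages held 136 of 187 in WT and 139 of 384 in Vsir-/-).

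Gene lists for each kind of DC gave the same mixed picture. The list of 10 strict plasmacytoid genes was meant to leave out genes shared with B cells, interferon responses, or other myeloid cells, but did not do so fully. It summed to 1107 CPM in WT and 1148 CPM in Vsir-/-, compared with 234 and 296 CPM in all other cells of the same library. B cells reached 1440 and 825 CPM, most of it from Ly6d, which B cells also transcribe. At least 1 gene of the list was found in 90.6% of WT and 78.4% of Vsir-/- B cells. The 7 strict type 1 genes summed to 60.4 and 550 CPM (other cells, 19.3 and 49.2), and the 7 strict type 2 genes to 627 and 898 CPM. R1 macrophages held 358 and 298 CPM of the strict type 1 genes and 578 and 671 CPM of the strict type 2 genes, so the type 2 levels of the cluster were near those of a macrophage cluster. The cluster was formed from the expression of these same genes, so these levels describe it and test nothing.

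Many single cells held genes of more than 1 list. At least 2 strict plasmacytoid genes were found in 14 of 21 WT cells (66.7%; interval, 43.0% to 85.4%) and 45 of 86 Vsir-/- cells (52.3%; 41.3% to 63.2%). The same count was met by 4.75% of WT and 38.6% of Vsir-/- B cells and by 1.53% and 13.9% of neutrophils. Klk1, a kallikrein made in the kidney tubule as well as in plasmacytoid DCs, contributed to this count: it had 1 UMI in 1 WT cell and 158 UMIs in 64 Vsir-/- cells of the cluster, and was found in 65.8% of Vsir-/- neutrophils. Without Klk1 and Ly6d the shares were 52.4% and 32.6%. At least 2 strict type 1 genes were found in 3 WT cells (14.3%) and 24 Vsir-/- cells (27.9%), compared with 0 of 969 and 6.82% of B cells. At least 2 strict type 2 genes were found in 8 WT cells (38.1%) and 42 Vsir-/- cells (48.8%), compared with 0 of 969 and 4.55% of B cells. Of these, 7 of the 8 WT cells and 24 of the 42 Vsir-/- cells also held 2 or more strict plasmacytoid genes, so a count of 2 genes does not separate the kinds of DC.

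Siglech split the cluster sharply. Of the 107 cells, 17 held 5 or more Siglech UMIs and are called Siglech cells here, 3 in WT (14.3% of its cells) and 14 in Vsir-/- (16.3%). In WT they held 8, 13, and 27 Siglech UMIs, and in Vsir-/- 5 to 30 with a median of 18.5. The other 90 cells held 2 at most, and 3 WT and 6 Vsir-/- cells among them had any. This rule and those for the other sets were chosen after the values were seen, so the genes that follow describe the sets.

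In the authors' embedding, these 17 cells and no other cell of the cluster formed an island of their own. They held 7 to 9 of the 10 strict plasmacytoid genes in WT and 7 to 10 in Vsir-/-, compared with 5 at most in every other Vsir-/- cell of the cluster. In Vsir-/-, 383 of 384 UMIs of Ly6d, a surface protein of lymphoid and plasmacytoid progenitors, were in Siglech cells. So were 152 of 156 UMIs of Cox6a2, a respiratory chain subunit, 128 of 142 of Ccr9, and 95 of 126 of Runx2, a transcription factor of plasmacytoid DCs. Mzb1, which serves secretion in plasma cells and plasmacytoid DCs, had 50 UMIs in Siglech cells and 0 in the other Vsir-/- cells of the cluster. Tcf4 stood at 2663 CPM in the WT and 2279 CPM in the Vsir-/- Siglech cells, compared with 136 and 121 CPM in the cells with Cd209a that are described next. Spib, a further regulator of plasmacytoid DCs, was at 111 CPM (3 UMIs) and 233 CPM. The summed level of the wider plasmacytoid list was 18975 and 20381 CPM in Siglech cells and between 551 and 2201 CPM in the other sets, in both libraries. Siglech cells were low in MHC class II, with a median of 4 H2-Aa UMIs per cell in each library. Siglech, which defined the set, is 1 of the 10 strict plasmacytoid genes. Klk1, which the kidney tubule also makes, is another, and was found in 13 of the 14 Vsir-/- Siglech cells. With both counted, the 17 Siglech cells of the 107 carried 7 or more of the strict plasmacytoid genes together. By these genes the name holds for a minority of the cluster. A few cells outside the island lay between, such as a remaining Vsir-/- cell with 5 strict plasmacytoid genes, which held 2 Siglech, 25 Bst2, 7 Tcf4, and 8 Ccr9 UMIs.

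**Figure D2:**
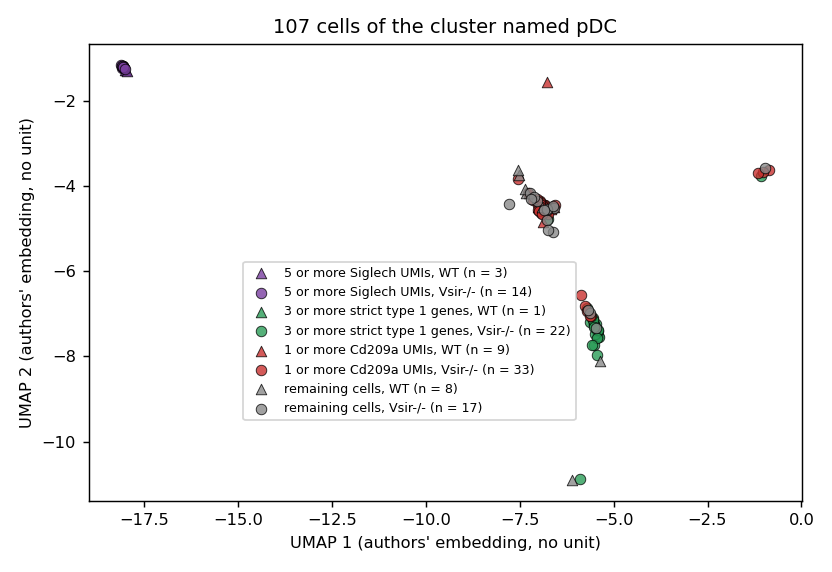
The authors' UMAP coordinates (no unit) of the 107 cells, coloured by the set defined here and shaped by library (21 WT, 86 Vsir-/-). The 17 Siglech cells lie apart from the rest. Most cells with type 1 genes and most cells with Cd209a lie in different places, but some cells of each set lie among the other.

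A second set was defined by 3 or more of the 7 strict type 1 genes and is called Xcr1 cells here. It held 1 WT cell (4.76%) and 22 Vsir-/- cells (25.6%). The WT cell had 4 of these genes and the Vsir-/- cells had 4 to 7 with a median of 6, whereas no other cell of the cluster had more than 2. Xcr1 had 3 UMIs in the WT cell and 1 to 31 UMIs per cell in Vsir-/- (median, 9), and all 225 Xcr1 UMIs of the Vsir-/- cluster were in this set. The WT value rests on a single cell. The Vsir-/- Xcr1 cells also held 50 of 50 UMIs of Itgae (CD103, which binds epithelial E-cadherin), 73 of 76 of Tlr3 (a sensor of double-stranded RNA), 83 of 87 of Cadm1 (an adhesion molecule), 634 of 744 of Naaa (a lysosomal amidase), and 106 of 129 of Clec9a. Id2, the inhibitor of TCF4 that marks conventional DCs, was at 1294 CPM in Vsir-/- Xcr1 cells and at 68 CPM in Vsir-/- Siglech cells. In the cells with Cd209a that are described next, Id2 was at 61.3 CPM (WT) and 171 CPM (Vsir-/-). Irf8, which both kinds of DC need, was high in both, with medians of 42 UMIs per Vsir-/- Xcr1 cell and 29 per Vsir-/- Siglech cell. The Siglech cells were less deep, and by level the order was the other way, at 2085 CPM (Xcr1 cells) and 3704 CPM (Siglech cells). Cst3 (cystatin C), abundant in DCs, had 9890 of its 13014 Vsir-/- UMIs in the Xcr1 cells. Xcr1 cells held much MHC class II, with 106 H2-Aa UMIs in the WT cell and a median of 151.5 in Vsir-/-.

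The largest set comprised the cells with a Cd209a UMI among the rest, called Cd209a cells here, with 9 WT cells (42.9%) and 33 Vsir-/- cells (38.4%). Cd209a ranged from 2 to 39 UMIs per cell in WT (median, 9) and from 1 to 69 in Vsir-/- (median, 8). No cell of the cluster held both Cd209a and Xcr1 or both Xcr1 and Siglech, and 1 Vsir-/- Siglech cell held 3 Cd209a UMIs. The Vsir-/- Cd209a cells held 190 of 254 UMIs of Mgl2, 136 of 187 of Clec10a (both galactose-binding lectins of type 2 conventional DCs and macrophages), 63 of 81 of Clec4b1 (a lectin receptor), 82 of 100 of the integrin Itgam (CD11b), and 1149 of 1636 of S100a4 (a calcium-binding protein of motile cells). In WT, Mgl2 was found in 1 cell with 6 UMIs. Clec10a was not particular to this set. Its level was 324 CPM in the Vsir-/- Cd209a cells (24 of 33 cells) and 398 CPM in the Vsir-/- Siglech cells (11 of 14 cells). Cd209d, a further strict type 2 gene, was at 54.5 CPM (WT) and 40.5 CPM (Vsir-/-) in Cd209a cells, but at 111 and 116 CPM in Siglech cells. Klf4, of the wider type 2 list, was at 368 and 364 CPM in Cd209a cells and at 438 and 509 CPM in the remaining cells. S100a4 stood at 1648 and 2735 CPM in Cd209a cells and at 1501 and 2033 CPM in the remaining cells. In Siglech cells the strict type 2 genes summed to 148 CPM in WT and 582 CPM in Vsir-/-. Irf4, a transcription factor of type 2 conventional DCs, had 25 of its 28 Vsir-/- UMIs in Cd209a cells. Irf8 had a median of 0 UMIs per cell in both libraries. Flt3 was at 61.3 CPM (WT) and 59.5 CPM (Vsir-/-) in Cd209a cells and at 148 CPM (4 UMIs) and 97.0 CPM in Siglech cells. The list of genes shared by conventional DCs summed to 967 and 1643 CPM in Cd209a cells. In Siglech cells this list summed to 2034 and 1241 CPM, so it did not set the Cd209a cells apart in WT. The strict type 2 genes summed to 1063 CPM in WT and 2126 CPM in Vsir-/- Cd209a cells, the strict type 1 genes to 13.6 and 23.8 CPM, and the strict plasmacytoid genes to 198 and 198 CPM. Cd209a itself, which defined the set, made up 742 and 1050 CPM of the type 2 sums, so these sums are no independent support. Lyz2 (lysozyme), a transcript of monocytes and macrophages, had a median of 27 UMIs per WT and 3 per Vsir-/- Cd209a cell. In the 5 WT Cd209a cells without genes of other lineages the median was 7, in the other 4 it was 70, and without those 4 the log2 ratio was −0.38 (interval, −0.79 to 0.06) in place of −1.74. Ccr2, the receptor of inflammatory monocytes that conventional DCs also carry, was at 606 and 664 CPM. The monocyte and macrophage list summed to 5885 CPM (WT) and 4004 CPM (Vsir-/-) in Cd209a cells. It summed to 7656 and 6768 CPM in Siglech cells and to 1929 and 2101 CPM in Xcr1 cells. Csf1r, the macrophage growth factor receptor, was low in the cluster as a whole (136 and 63.4 CPM).

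**Figure D3:**
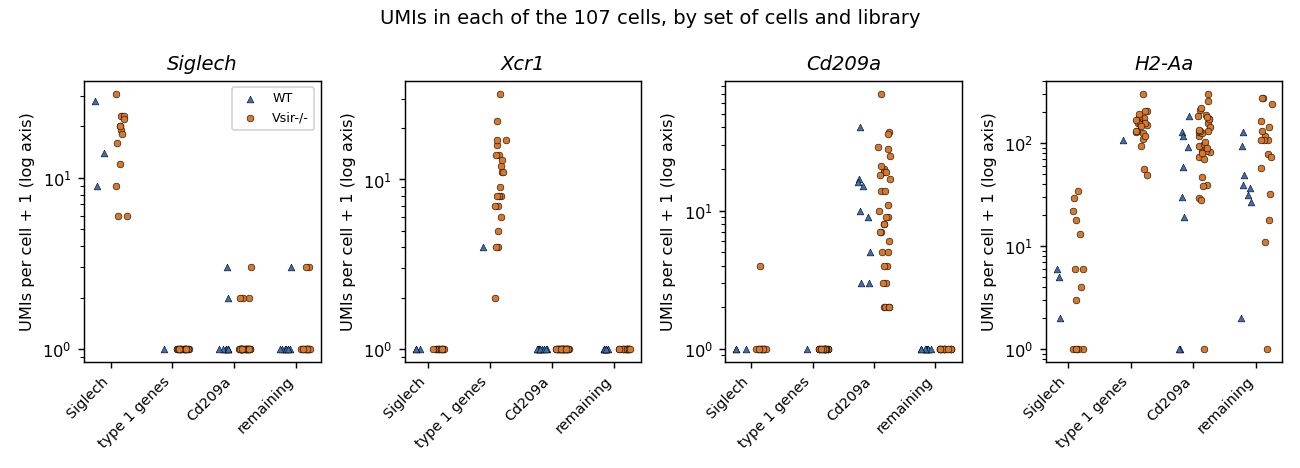
UMIs plus 1 per cell (log axis) of Siglech, Xcr1, Cd209a, and H2-Aa in each of the 107 cells, by set and library. Siglech, Xcr1, and Cd209a each mark their own set because the sets were defined with them or their list, and H2-Aa, which no rule used, was lowest in the Siglech cells (median, 4 UMIs in each library).

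The remaining 8 WT cells (38.1%) and 17 Vsir-/- cells (19.8%) met none of these rules. They had a median of 37 and 106 H2-Aa UMIs per cell. A few held transcripts of mature migratory DCs, the state in which conventional DCs leave tissue for lymph nodes. Strict mature genes summed to 338 CPM in WT and 630 CPM in Vsir-/- in the remaining cells, and were at 0 in the Siglech cells of both libraries. Ccl17, a chemokine of mature DCs that attracts CCR4+ T cells, had 94 of its 97 Vsir-/- UMIs in 3 remaining cells and was listed at 0 in the whole WT library. Ccr7, the receptor for lymph node homing, had 29 UMIs in 2 remaining Vsir-/- cells and 22 UMIs in 4 remaining WT cells. Ccr7 is shared with lymphocytes, and 5 of the 8 remaining WT cells held B cell genes (see the lineage counts that follow).

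In Vsir-/-, 14 cells held 3 or more of 7 cell cycle genes, 7 of them Xcr1 cells, 6 Cd209a cells, and 1 a remaining cell, and none a Siglech cell. In WT there were 2 such cells, 1 of them a Cd209a cell. In the embedding, 5 Vsir-/- cells (3 Cd209a cells, 1 Xcr1 cell, and 1 remaining cell) lay to the right of the others, and each of these held 7 of 7 cycle genes. Of the 14 cycling cells in the Vsir-/- part of the cluster, 7 thus met the rule for type 1 genes. Another 6 met only the rule of 1 or more Cd209a UMIs, a gene of conventional and monocyte-derived DCs that does not separate these. Most cells of that part met 1 of these rules, since Xcr1 cells made up 25.6% and Cd209a cells 38.4%. Depth differed too, with a median of 20942.5 UMIs in the Vsir-/- cycling cells and 6965.5 in the Vsir-/- Siglech cells.

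Cells with the same transcripts were also found in other clusters. Of all cells with 5 or more Siglech UMIs, 3 of 4 in WT and 14 of 16 in Vsir-/- were in the cluster. Of all cells with 3 or more strict type 1 genes, 1 of 5 in WT and 22 of 42 in Vsir-/- were in the cluster, and the R1 macrophage cluster held 4 of the others in WT and 14 in Vsir-/-. Of all cells with a Cd209a UMI, 9 of 28 in WT and 34 of 48 in Vsir-/- were in the cluster, and the M2-like R2 macrophages held 9 and 8. The cluster thus held most cells with Siglech, but in WT only 1 of the 5 cells with type 1 genes. Counted over each whole library, the Siglech cells of the cluster came to 3 of 5470 WT cells and 14 of 1844 Vsir-/- cells.

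RNA of other lineages was present, and it differed between the libraries. At least 3 B cell genes were found in 7 of the 21 WT cells and 0 of the 86 Vsir-/- cells, and 5 of the 7 were remaining cells. The B cell list summed to 3279 CPM in the WT cluster, close to the 3844 CPM of all other WT cells, and to 309 CPM in the Vsir-/- cluster (other cells, 2067). In WT its most abundant gene was the immunoglobulin light chain Igkc (387 UMIs, in 9 cells, up to 115 per cell), followed by Ighm (142 UMIs, in 18 cells), and Cd79a, a subunit of the B cell receptor, had 82 UMIs in 8 cells. In Vsir-/-, Ighm had 309 UMIs in 69 cells and led the list, Igkc had 10 UMIs, and the defining genes Cd79a, Ms4a1, and Pax5 were at 0 in the cluster. Ighm UMIs were found in all 17 Siglech cells. At least 3 NK genes were found in 2 WT and 0 Vsir-/- cells, and at least 3 T cell genes in 2 and 1. A single WT cell held 177 of the 204 Gzma UMIs (granzyme A of cytotoxic lymphocytes). Endothelial genes had the other direction, with 3 or more in 0 WT and 5 Vsir-/- cells. In all, 10 of 21 WT and 6 of 86 Vsir-/- cells held 3 or more genes of 1 of these 4 lineages, and doublets were neither called nor removed here. Leaving these cells out kept 11 WT and 80 Vsir-/- cells, among them all 17 Siglech cells, and moved many WT values. Siglech was then at 418 and 226 CPM (log2 ratio of Vsir-/- over WT, −0.90; interval, −1.32 to −0.43), Bst2 at 2069 and 788 CPM, Tcf4 at 719 and 317 CPM, Ccr9 at 245 and 132 CPM, and Cd209a at 632 and 414 CPM. The similar levels of Siglech, Ccr9, and Cd209a in both libraries therefore hold only with these cells kept, and several of the genotype values that follow, those that moved most, are also given without these cells.

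**Figure D4:**
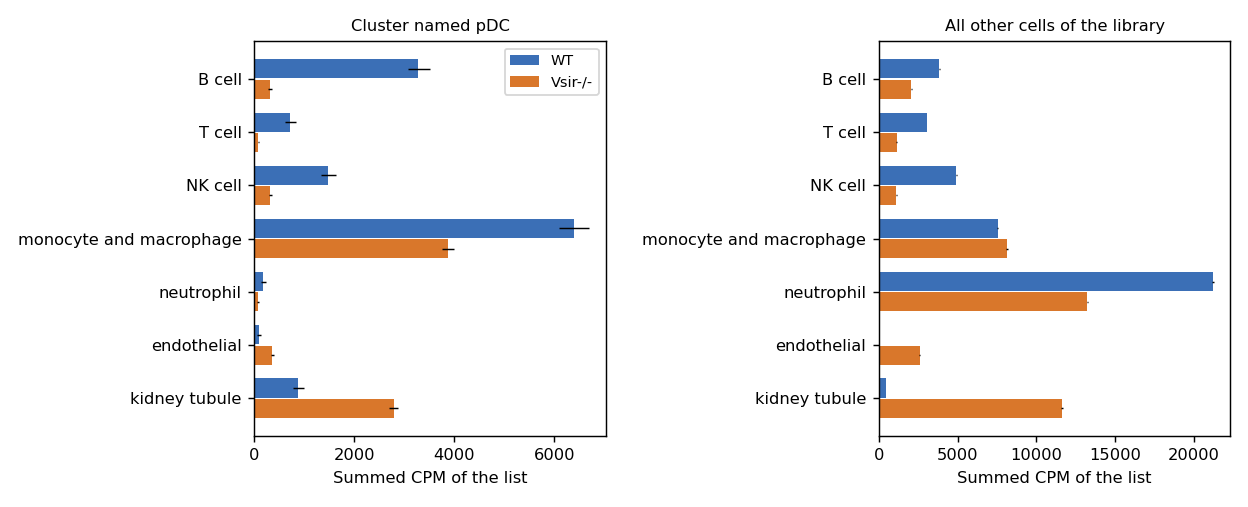
Summed level (CPM, with exact 95% Poisson intervals) of 7 lists of other lineages in the cluster and in all other cells of the same library. In WT the B cell list of the cluster (3279 CPM) is near that of the other cells (3844 CPM), and in Vsir-/- the tubule list is at 2784 CPM in the cluster and 11651 CPM in the other cells.

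Kidney tubule genes summed to 873 CPM in the WT cluster and 2784 CPM in the Vsir-/- cluster, compared with 471 and 11651 CPM in the other cells, and 23 of the 30 genes were at 0 in the WT cluster. Umod (uromodulin of the thick ascending limb) was listed at 0 in the WT library and was found in 75 of the 86 Vsir-/- cells with 194 UMIs. The most abundant list member was Napsa (napsin A, also transcribed in antigen-presenting cells), with 170 and 899 UMIs. Monocyte and macrophage genes summed to 6388 and 3875 CPM (other cells, 7556 and 8134), led by Plac8 (628 and 1882 UMIs), a transcript that plasmacytoid DCs share with monocytes. C1qc and Mertk, which mark mature macrophages, were at 0 in the WT cluster. Neutrophil genes were low, with 178 and 72.7 CPM compared with 21232 and 13257 CPM in the other cells.

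Between the genotypes, 6767 genes held 20 or more UMIs in the cluster. Of these, 11.9% were 2-fold or more higher in Vsir-/- and 10.1% were 2-fold or more lower, and the median log2 ratio (Vsir-/- over WT, of CPM with 0.5 UMIs added) was −0.07. Without the genes listed at 0 in either whole library, 10.0% and 10.1% of 6602 genes were past these limits. These shares are the background for each list, a list's median is given beside that of all genes, and with 1 library each they are descriptions. The sets of the cluster had different weights in the libraries, since 25.6% of Vsir-/- but 4.76% of WT cells were Xcr1 cells. Type 1 genes, which defined the Xcr1 cells in part, had a median of 2.12 over genes above 0 in both libraries, with 10 of 11 of them 2-fold higher in Vsir-/-. The part of the Xcr1 share in this ratio was not tested. Strict plasmacytoid genes had a median of 0.00 with 1 of 10 genes 2-fold higher and 0 lower, and strict type 2 genes 0.74 with 2 of 6 higher and 0 lower. Without cells holding genes of other lineages, the strict plasmacytoid median was −0.81 with 1 of 10 genes higher and 2 lower, and Siglech cells then made up 3 of 11 WT and 14 of 80 Vsir-/- cells. Values within the Siglech and Cd209a cells are therefore given beside those of the whole cluster.

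Of 13 MHC class II genes above 0 in both libraries, 3 were 2-fold or more higher in the Vsir-/- cluster and 0 were 2-fold lower. The 3 were H2-Ab1, H2-Eb1, and Ciita. Of all genes above 0 in both libraries, 10.0% were higher and 10.1% lower. H2-Ab1, which encodes the β chain of the I-A molecule, had 868 UMIs in WT and 9778 in Vsir-/-, or 3279 and 8265 CPM (log2 ratio 1.33; interval, 1.23 to 1.44). H2-Aa, the α chain, was at 4277 and 7831 CPM (0.87; 0.78 to 0.96), H2-Eb1 at 2660 and 6846 CPM, and Cd74, the invariant chain, at 11564 and 18074 CPM (0.64). Ciita, the master regulator of the class II genes, was at 90.7 and 265 CPM (1.52; 0.95 to 2.21). The class II list as a whole had a median of 0.55, compared with 0.27 in all other cells, 1.12 in the M2-like R2 macrophages, −0.05 in R1 macrophages, −0.38 in the cluster named Other R2, and −0.44 in B cells. The peptide-loading gene H2-DMa was at 642 and 887 CPM (0.46) and the protease Ctss at 1031 and 1037 CPM (0.01), while the protease Lgmn was lower in Vsir-/-, at 113 and 70.2 CPM (−0.71; interval, −1.31 to −0.04). Ifi30, a lysosomal reductase for antigen processing, was listed at 0 in the WT library and is no measure of genotype.

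Within the Cd209a cells the class II list summed to 22743 CPM in WT and 57889 CPM in Vsir-/- (log2 of the ratio of sums, 1.35; interval, 1.30 to 1.40), with a median of 1.32 and 9 of 13 genes 2-fold higher. Over all 3698 genes with 20 or more UMIs in the Cd209a cells, 11.0% were 2-fold higher and 8.19% lower, with a median of −0.04. In the Xcr1 cells the order was the other way, at 50625 CPM in the single WT cell (interval, 46485 to 55034) and 42569 CPM in Vsir-/-. Single Cd209a cells overlapped, and 2 of 9 WT and 1 of 33 Vsir-/- cells held 0 H2-Aa UMIs. The 9 WT Cd209a cells held 0 to 182 H2-Aa UMIs (median, 57) and the 33 Vsir-/- cells held 0 to 299 (median, 116). Lineage RNA moved with the WT level. The 5 WT Cd209a cells without genes of another lineage held 0 to 90 H2-Aa UMIs (median, 18), and the other 4 held 29 to 182 (median, 121.5). Both WT cells with 0 H2-Aa UMIs were among these 5. They held 2 and 1 Siglech UMIs and 27 and 15 Bst2 UMIs, and the Vsir-/- cell with 0 H2-Aa UMIs held 2 and 41. Without cells holding genes of other lineages, the median of the list was 1.38 in the whole cluster (11 WT and 80 Vsir-/- cells), with 10 of 14 genes higher (Ifi30 among the 14), and 1.92 in the Cd209a cells. The background without these cells was 13.6% of 6056 genes higher and 12.6% lower with a median of −0.14 in the cluster, and 13.9% of 3251 genes higher and 11.8% lower with a median of −0.15 in the Cd209a cells. In Siglech cells the list summed to 6140 and 9124 CPM, with a median of 0.76 over 8 genes, 4 of them higher and 0 lower, beside 11.3% higher and 6.57% lower of 990 genes with a median of −0.03. The single Siglech cells did not show this order, since the median cell held 4 H2-Aa UMIs in both libraries, 5 of the 14 Vsir-/- cells held none, and the median of each cell's own Cd74 level was 4679 CPM (WT) and 3246 CPM (Vsir-/-). MHC class I genes, in contrast, had a median of 0.04 in the cluster, with 0 of 16 past 2-fold in either direction (the H2-Q genes among them share near-identical sequence). It was 0.34 without cells holding genes of other lineages, with 4 of 16 higher and 0 lower.

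Of 26 type I interferon-stimulated genes above 0 in both libraries, 13 were 2-fold or more lower in the Vsir-/- cluster, beside 10.1% of all such genes. None was 2-fold higher, and the median log2 ratio was −1.01 (−1.11 over 27 genes with Mx1 counted). Over genes above 0 in both libraries the median was −0.22 in all other cells, −0.72 in M2-like R2 macrophages, −0.75 in Other R2, −0.17 in R1 macrophages, and 0.45 in B cells. Isg15, a ubiquitin-like modifier, was at 412 CPM in WT and 160 CPM in Vsir-/- (log2 ratio, −1.37; interval, −1.71 to −1.01). Ifi27l2a, an interferon-induced protein, was at 2444 and 971 CPM (−1.33), Ifitm3, which blocks viral entry, at 3695 and 2062 CPM (−0.84), Slfn5 at 400.5 and 183 CPM (−1.14), and Oasl2 at 147 and 49.0 CPM (−1.59). Mx1 had 34 UMIs in the WT cluster and was listed at 0 in the Vsir-/- library. The list includes Bst2 (−0.68), 1 of the 5 marker transcripts of the cluster.

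These medians were closer to 0 within sets. In Cd209a cells the median was −0.71 with 6 of 18 genes 2-fold lower and 0 higher, beside 8.19% lower among all genes of these cells. In Siglech cells, with 27036 WT UMIs, it was −0.79 over 7 genes, 1 of them 2-fold lower and 1 higher, beside 6.57% and 11.3% of all genes. Single genes went both ways in the Siglech cells, where Isg15 had 12 and 3 UMIs (444 and 29.1 CPM) but Ifi27l2a was higher in Vsir-/-, at 703 and 1784 CPM (log2 ratio, 1.31; interval, 0.66 to 2.11). Without cells holding genes of other lineages, it was −0.78 in the cluster, with 6 of 22 genes lower beside 12.6% of all genes, and −0.48 in Cd209a cells. In the cluster Ifi27l2a was then at 1398 and 956 CPM (−0.55), Isg15 at 237 and 153 CPM (−0.65), and Bst2 at −1.39. In the Cd209a cells without such genes the log2 ratio was −0.04 for Ifi27l2a, −0.10 for Ifitm3, and −0.38 for Isg15. Genes induced by interferon γ, a list that holds other genes, had a median of 0.50 with 5 of 18 genes higher and 3 lower.

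**Figure D5:**
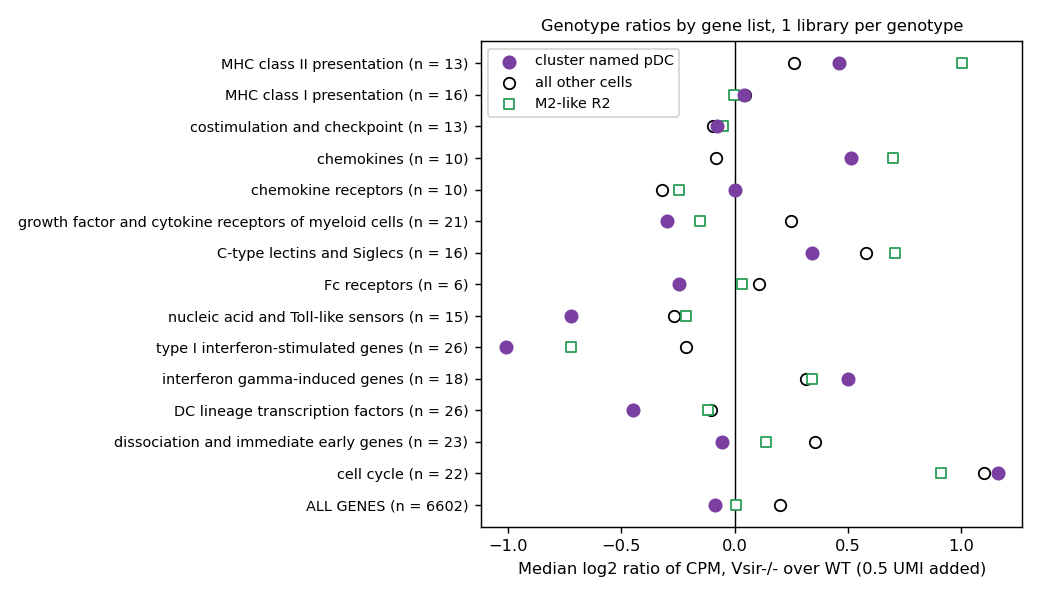
Median log2 ratio (Vsir-/- over WT) of 14 gene lists and of all genes, for genes above 0 in both libraries, in the cluster, in all other cells, and in M2-like R2 macrophages. In the cluster the type I interferon-stimulated genes lie lowest of the lists plotted, at −1.01, MHC class II lies at 0.46, and all genes lie at −0.09.

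Cytokine and chemokine transcripts were few and often came from 1 cell. No type I interferon level is given, since Ifnb1 was not in the table. Il1b, an inflammatory cytokine, had 71 and 573 UMIs (268 and 484 CPM; log2 ratio, 0.84). Single Vsir-/- cells held 166 and 110 of these UMIs, and the median cell of the cluster held 0 in both libraries. Tgfb1, a regulatory cytokine, was at 333 and 155 CPM (−1.11). The cytokine list had a median of −0.45 with 0 of 7 genes higher and 2 lower, but of 0.59 with 3 higher and 1 lower without cells holding genes of other lineages, when Il1b was at 111 and 460 CPM (2.01). Of 10 chemokine genes above 0 in both libraries, 5 were 2-fold higher and 3 lower, with a median of 0.52. The median was 1.40 over 12 genes when those listed at 0 in a library were counted. Ccl4, which attracts T cells and NK cells, had 63 UMIs in WT and 607 in Vsir-/- (238 and 513 CPM; 1.10), and in the Siglech cells it stood at 407 and 2114 CPM, with 2 of 3 WT and 11 of 14 Vsir-/- cells holding a UMI. A single Vsir-/- cell held 54 of the 218 UMIs, and the median of each Siglech cell's own Ccl4 level was 199 CPM (WT) and 475 CPM (Vsir-/-). The interferon-inducible chemokines Cxcl9 (0 and 235 UMIs) and Cxcl10 (5 and 152 UMIs), which attract CXCR3+ T cells, rested on single Vsir-/- cells that held 206 and 134 of these UMIs. Likewise, 1 WT cell held 234 of the 253 Ccl5 UMIs (Ccl5, a chemokine of cytotoxic lymphocytes and DCs). Ccl3 was at 140 and 54.1 CPM, but at 23.7 CPM (3 UMIs) and 53.1 CPM without cells holding genes of other lineages, and Ccl9 was at 336 and 139 CPM.

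Among receptors that guide DCs, the chemokine receptor list had a median of 0.00, with 3 of 10 genes higher and 3 lower. Ccr2 was at 476 and 457 CPM (log2 ratio, −0.06), Cxcr4 at 151 and 33.0 CPM (−2.20), and Ccr7 at 117 and 24.5 CPM (−2.25). Cxcr4 and Ccr7 are also abundant in B cells, and without cells holding genes of other lineages WT had 2 Cxcr4 and 0 Ccr7 UMIs in 126647 UMIs, compared with 34 and 22 in Vsir-/-, which is too few to show a difference in either direction. The median of the list was then 0.52. Growth factor and cytokine receptors had a median of −0.30 with 4 of 21 higher and 4 lower. Flt3 was at 64.2 and 93.0 CPM (0.50), Csf1r at 136 and 63.4 CPM (−1.11), and Il4ra at 151 and 59.2 CPM (−1.36). These were at −0.42, −0.44, and −0.74 without cells holding genes of other lineages, each with an interval that included 0. Costimulatory and checkpoint genes had a median of −0.08, with 2 of 13 higher and 1 lower. Cd86, a ligand of CD28, was at 41.6 and 87.1 CPM (1.01), Cd83, a maturation marker, at 30.2 and 130 CPM (2.02), and Selplg, the P-selectin ligand that has also been described as a VISTA partner, at 586 and 309 CPM.

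Nucleic acid sensors had a median of −0.73, with 1 of 15 genes higher and 3 lower. Tlr7, the receptor for single-stranded RNA, was at 52.9 and 11.0 CPM (−2.26), from 14 and 13 UMIs. Of these, 5 and 12 UMIs were in Siglech cells, at 185 and 116 CPM (−0.75; interval, −2.28 to 1.19), and without cells holding genes of other lineages the ratio was −1.79 (−3.28 to 0.14). Tlr9, the receptor for unmethylated DNA, was at 0 CPM in WT and 3.38 CPM in Vsir-/-, so it was barely detected at this depth in either library. Tlr3 was at 3.78 and 64.2 CPM (3.51), and almost all of it lay in the Xcr1 cells. Irf7, the interferon regulatory factor of plasmacytoid DCs, was at 261 and 150 CPM (−0.80), Tmem173 (STING, which senses cyclic dinucleotides) at 200 and 114 CPM (−0.82), and Unc93b1, the chaperone of endosomal Toll-like receptors, at 257 and 338 CPM (0.39). Lectin receptors had a median of 0.34 (6 of 16 higher, 3 lower) and Fc receptors −0.25 (0 of 6 higher, 1 lower). Without cells holding genes of other lineages, the medians were −0.28 for the sensors, 0.87 for the lectins, and 0.34 for the Fc receptors (3 of 6 higher, 1 lower), while that of all genes was −0.14. Leaving out these cells thus moved these 3 lists up and all genes slightly down.

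Transcription factors of DC development had a median of −0.45, with 4 of 26 genes higher and 6 lower. Those of type 1 conventional DCs were higher in the Vsir-/- cluster, with Irf8 at 684 and 1193 CPM (0.80; 0.04 without cells holding genes of other lineages), Batf3 at 45.3 and 148 CPM (1.65), and Id2 at 121 and 599 CPM (2.29). Bcl11a, which plasmacytoid DCs and B cells need, was at 329 and 126 CPM (−1.39). It was at 444 and 494 CPM in the Siglech cells (0.11; interval, −0.77 to 1.20), at 225 and 76.2 CPM in the Cd209a cells (−1.56), and at −1.90 in the cluster without cells holding genes of other lineages. Zeb2, a regulator of plasmacytoid DCs and monocytes, was at 453 and 145 CPM (−1.65), and Cebpb, a factor of monocyte-derived cells, was at 514 and 123 CPM (−2.07; −1.22 without those cells). Spi1 (PU.1), Klf4, and Irf4 differed less, at −0.45, −0.28, and −0.41. The share of Xcr1 cells moves with the first group of genes, and its part was not tested, since WT had 1 such cell.

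Cell cycle genes had a median of 1.16, with 16 of 22 genes 2-fold higher in Vsir-/- and 0 lower, but the median was 1.10 in all other cells, 0.91 in M2-like R2 macrophages, 0.77 in B cells, 0.47 in R1 macrophages, and −0.38 in Other R2. Pclaf, a DNA replication factor, had 4 UMIs in 1 WT cell and 219 UMIs in 13 Vsir-/- cells, and Stmn1, a tubulin-binding protein of dividing cells, was at 60.5 and 260 CPM (2.06). Mki67, the Ki-67 antigen, was at 106 and 87.9 CPM (−0.29), and Top2a at 90.7 and 126 CPM. In WT these UMIs lay mostly in cells with genes of other lineages, without which 2 Mki67 UMIs and 1 Top2a UMI were left and the median of the list was 1.88. In Cd209a cells the list summed to 2118 and 4866 CPM with a median of 1.56, and in Siglech cells the median was 0.18 over 3 genes. Dissociation and immediate early genes, which respond to digestion of tissue, had a median of −0.05 with 2 of 23 higher and 0 lower (0.49 without cells holding genes of other lineages), and genes encoded by mitochondrial DNA a median of 0.00.

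Lymphocyte transcripts led the 12 genes with the smallest ratios, taken from genes with 50 or more cluster UMIs of which each library had 4 or more. Igkc was at 1462 CPM in WT and 8.45 CPM in Vsir-/- (−7.37). Ccl5 (−4.88), Ms4a4b (−3.71, a membrane protein of T cells), Ebf1 (−3.58, a B cell transcription factor), Cd79b (−3.41), Ltb (−3.12, lymphotoxin β), Satb1 (−2.90, a chromatin organizer of T cells), and Ets1 (−2.39) belong to B, T, or NK cells too. WT had 2 Igkc, 4 Ms4a4b, 3 Ets1, and 0 Ltb UMIs once cells holding genes of other lineages were left out. Other genes of the 12 do not mark lymphocytes. Tppp3, a tubulin-binding protein, was at 280 and 18.6 CPM (−3.89), in several sets of the WT cells with at most 17 UMIs in 1 cell, and was at 537 and 19.6 CPM (−4.75) without those cells. Rnf149, a ubiquitin ligase, was at −3.18. Lmna, a lamin of the nuclear envelope, was at −2.48 in the cluster and at 2.43 in all other cells, and in the cluster it was at 292 and 23.3 CPM (−3.64) without cells holding genes of other lineages.

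The largest ratios came partly from genes that were higher throughout the Vsir-/- library. Tomm6, a subunit of the mitochondrial import pore, was at 18.9 and 268 CPM (3.69) in the cluster, and at 3.46 in all other cells. Rpl13a, a ribosomal protein, was at 567 and 2886 CPM (2.34; other cells, 1.69). Pltp, a phospholipid transfer protein, was at 3.27, with 102 of its Vsir-/- UMIs in Siglech cells and 80 in Cd209a cells. Ckb, the brain creatine kinase, was at 136 and 837 CPM (2.60), with 504 Vsir-/- UMIs in Xcr1 cells. Mgl2 (3.13), Basp1 (2.75), Cxcl10 (2.63), Pclaf (3.45), Cks1b (2.47), Id2 (2.29), and Ifi205 (2.27) were also among the largest, and 1 Vsir-/- cell held 94 of the Mgl2 UMIs. The WT values of Mgl2 (6 UMIs) and Pclaf (4 UMIs) came from cells with genes of other lineages, without which both were at 0.

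By the smaller of both libraries' ratios over all other cells, Siglech and Cd209a stood first. Siglech was 283 times as high as in the other WT cells and 179 times as high as in the other Vsir-/- cells, and Cd209a 126 and 97.6 times. After them came Cox6a2 (49.9 and 144 times), Tnni2 (35.6 and 28.0 times, a troponin with most of its Vsir-/- UMIs in Xcr1 cells), Clec10a, Kmo (kynurenine 3-monooxygenase, found in all sets of the Vsir-/- cells), Olfm1, Tnfsf9 (the ligand of 4-1BB, in Cd209a cells), Bcl11a, Ccr9, Runx2, Ppfia4, H2-DMb1, and Rgs18. The most abundant transcripts besides ribosomal protein and mitochondrial genes were Actb, Tmsb4x, Malat1, Cd74, Tpt1, Fau, Eef1a1, and H2-Aa, followed by Tmsb10, H2-Ab1, Fth1, Actg1, Ptma, Cst3, and H2-Eb1, so that 4 of these 15 were MHC class II genes or their invariant chain.

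Over 31 pairs of cluster and library, the genes whose summed levels were most like those of Cd209a (Spearman's rho, 11262 genes with 200 or more UMIs) were Clec4b1 (0.74), H2-DMa (0.73), Slamf8 (0.72), Plekho1 (0.71), and Sh3pxd2b (0.70). Those most like Siglech were Rtn1 (0.74), Xcr1 (0.70), Pdia5 (0.69), Fmnl2 (0.69), and Cst3 (0.69). Xcr1 and Siglech were both in the cluster, but no cell of the cluster held both. These points share libraries and depth, and the values of rho are descriptions.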

How the data were processed

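The authors ran Cell Ranger (version 3.1.0), kept genes found in 5 or more cells and cells with 200 or more UMIs and at most 10% mitochondrial UMIs, and clustered and named the merged cells in Seurat (version 3.2.3). The deposited values are raw counts of UMIs per gene and cell, without normalization. The deposited percent of mitochondrial UMIs per cell was used for an alternative limit of 5%, and the deposited UMAP coordinates, a score without unit, for the plot of cells. The submitters' processing notes name mm9 without its role, and no coordinates are used. Total depth was 32799550 UMIs (WT) and 18601189 UMIs (Vsir-/-).

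UMIs were summed per cluster, set, and library and divided by all UMIs of the same cells (CPM), with exact Poisson, Clopper-Pearson, and conditional intervals. Genotype ratios used genes with 20 or more UMIs in the cluster and a pseudocount of 0.5 UMIs in each library. Cells were thinned to 1000 UMIs without replacement. The steps were tested on simulated data. No doublet caller was run, and any removal by the authors is not given in the sources used here. Cells with 3 or more genes of the B, T, NK, or endothelial lists were left out as an alternative.

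The gene lists and the cluster were chosen with earlier results of these data known. Genes named are list members, the 15 most abundant, the 15 with the largest ratio over all other cells, the 12 with the largest and 12 with the smallest genotype ratio, and the 5 most like Cd209a and Siglech. The genes that lead the sets, the check of library differences, and some list members named in the account of sets were chosen after their values were seen. Some genes that the rule names are not reported here. Python 3.11.15, numpy 2.4.6, scipy 1.17.1, pandas 2.3.3, and matplotlib 3.10.9 were used.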

Additional observations from a re-analysis of the deposited data

How the results depend on the processing

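No paired analysis was possible because each genotype has 1 library. The medians of the MHC class II, interferon-stimulated, and cell cycle lists kept their sign in every alternative that was run. The order of the libraries reversed for the strict plasmacytoid genes, which were at 1107 CPM (WT) and 1148 CPM (Vsir-/-) but at 1942 and 1251 CPM without cells holding other lineages' genes and at 1137 and 831 CPM without cells holding Cd79a, Cd3e, or Kap. It also reversed for the share of cells with these genes after thinning and with 1 or more genes required, for the share with type 2 genes with 1 or more required, and for the share with type 1 genes without cells holding other lineages' genes (27.3% and 26.2%). Values that moved by more than their counting interval, 0.1 for a median, or 1.5-fold for a count follow. Leaving out cells with genes of other lineages, the separation into sets, leaving out genes listed at 0 in a library, and leaving out Klk1 and Ly6d were chosen after seeing the data. The cause was not tested, except that thinning removes UMIs by construction.

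The WT share was 0.201% without cells holding other lineages' genes, and the Vsir-/- share was 6.19% among Ptprc+ cells and 5.92% at up to 5% mitochondrial UMIs. Summed strict plasmacytoid genes in WT were at 1485 CPM as a mean over cells, 1619 thinned, and 1942 without cells holding other lineages' genes, and in Vsir-/- at 2041, 1953, and 1251 CPM, and 831 CPM without cells holding Cd79a, Cd3e, or Kap. Strict type 1 genes in WT were at 238 CPM thinned, 120.1 without cells holding Cd79a, Cd3e, or Kap, and 118 without cells holding other lineages' genes, and in Vsir-/- at 434 CPM as a mean over cells, 360.5 thinned, and 427 without cells holding Cd79a, Cd3e, or Kap. Strict type 2 genes were at 865 CPM (without cells holding Cd79a, Cd3e, or Kap) and 861 CPM (without other lineages) in WT and at 973 CPM as a mean over cells in Vsir-/-.

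Cells with 2 or more strict plasmacytoid genes came to 14.3% (WT) and 17.4% (Vsir-/-) after thinning. With 1 or more genes required they came to 85.7% and 90.7%, with 3 or more to 38.1% and 29.1%, and without Klk1 and Ly6d to 32.6% in Vsir-/-. For type 1 genes the shares were 0.0% (WT) and 5.81% (Vsir-/-) after thinning and 48.8% (Vsir-/-) with 1 or more. For type 2 genes they were 9.52% and 16.3% after thinning, 81.0% and 70.9% with 1 or more, and 34.9% (Vsir-/-) with 3 or more.

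Genes 2-fold higher in Vsir-/- numbered 803, but 1293 at 10 or more UMIs, 330 at 50 or more, and 515 with a pseudocount of 2. Genes 2-fold lower numbered 686, but 1104 and 252 at these limits. They numbered 1048 after the summed profile of the other Vsir-/- cells was subtracted from the Vsir-/- cluster. The amount, 17.7% of its UMIs, was set so that the share of tubule genes equaled that of WT. The MHC class II median of 0.55 (Ifi30 counted) was 1.38 without cells holding other lineages' genes, 0.92 thinned, and 1.32 in Cd209a cells. The interferon-stimulated median of −1.11 was −0.85 at 50 or more UMIs, −0.87 as a mean over cells, −1.01 without genes listed at 0, −0.78 without cells holding other lineages' genes, −0.53 thinned, and −0.71 in Cd209a cells. The cell cycle median of 1.16 was 1.02 with a pseudocount of 2, 0.93 as a mean over cells, 1.03 without the deepest cell, 1.88 without cells holding other lineages' genes, 0.42 thinned, and 1.56 in Cd209a cells. Over all 31 lists, 144 of 284 alternative medians moved by more than 0.1 and 35 changed sign.

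The 21 WT cells and 264701 UMIs limit every ratio, and no value here separates genotype from library.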
